A study of Mus musculus with 3 samples.

Results

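Solute carriers are the large superfamily of membrane proteins that move sugars, amino acids, metals, ions, nucleotides and lipids across the plasma membrane and the membranes of organelles. The genes described here are the protein-coding mouse genes whose symbol begins with Slc and a number and whose level reached 5 CPM, the count scaled to each library's own total, in at least 1 of 3 RNA-seq libraries. Of 370 such genes with protein-coding annotation, 192 met this minimum, 178 stayed below it, and 34 of the 178 had 0 counts in every library. All 3 libraries came from RAG-2 null mice, which make no mature T or B cells, and from leukocytes of the intestinal epithelium. The iCD8a library was made from cells sorted as CD45+ and CD8alpha+, the ILC1 library from NKp46+ NK1.1+ group 1 innate lymphoid cells, and the CD11b+ library from myeloid cells that were CD45+, CD8alpha- and CD11b+. There was 1 library per population, so no difference below has a replicate check and none was tested. No source used here gives the age of the mice or how many gave each library.

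Carriers of this superfamily work as uniporters, as cotransporters that draw on the sodium or proton gradient, or as exchangers that trade an outgoing solute for an incoming one. In leukocytes they set the supply of glucose and amino acids during activation, release lactate, and control metal ions and nucleosides within phagosomes and lysosomes. In the gut the same superfamily is best known from absorptive enterocytes, whose brush border takes up sugars, amino acids, bile acids and nucleosides, so carriers of that cell type were followed as a list of their own.

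Counts on genes came to 21678113 in the iCD8a library, 22181660 in ILC1 and 30511296 in CD11b+. Levels below are CPM scaled with TMM (trimmed mean of M-values) factors unless another scale is named. Each of 3 sort markers was highest in the library gated on it: Cd8a stood at 2636, 4.41 and 28.3 CPM in iCD8a, ILC1 and CD11b+, Ncr1 (NKp46) at 1.44, 396 and 2.23 CPM, and Itgam (CD11b) at 362, 187 and 845 CPM. Klrb1c (NK1.1), part of the ILC1 gate, stood at 207, 546 and 14.7 CPM and was 2.63-fold higher in ILC1 than in iCD8a, which did not meet the 4-fold rule used below. All 12 macrophage and monocyte markers were detected in every library, with summed levels of 394, 573 and 8756 CPM. Itgam made up most of the first of these sums, and the other 11 summed to 32.7, 386 and 7911 CPM. The 26 intestinal epithelial markers, none of them at 0 in any library, summed to 588, 281 and 2613 CPM. Epcam stood at 154, 31.3 and 180.3 CPM and Cdh17 at 193, 19.1 and 72.3 CPM, and the other 24 summed to 241, 231 and 2359.9 CPM. The 8 plasmacytoid dendritic cell markers summed to 1223, 1424 and 455 CPM, and among them Siglech stood at 224, 0.954 and 12.9 CPM. Irf8, at 470, 1183 and 239 CPM, made up most of the ILC1 sum. The 9 natural killer cell and ILC1 markers summed to 351, 4017 and 89.1 CPM, the 5 mast cell markers to 8.89, 4.68 and 74.0 CPM, the 4 B cell markers to 25.3, 3.04 and 6.77 CPM, and the 7 erythroid markers to 0.762, 0.772 and 2.66 CPM. Among these, Mcpt4, Ms4a1 and Hbb-bt had 0 counts in iCD8a and ILC1. In sorted bulk samples such as these, fewer cells of a type and less RNA per cell cannot be told apart.

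The 192 carriers together took 1.07% of gene counts in iCD8a, 1.11% in ILC1 and 1.08% in CD11b+, with summed levels of 9817 (iCD8a), 11167 (ILC1) and 11700 CPM (CD11b+). A carrier was counted as apart between a pair of libraries when its fold reached 4, the bound of its 95% exact counting interval nearest to 1 reached 2, and its level was at least 5 CPM in the higher library. Between iCD8a and ILC1, 14 carriers were apart, 5 higher in iCD8a and 9 higher in ILC1, which is 7.29% of the 192 beside 7.56% of the 10704 protein-coding genes that passed the same minimum. Between iCD8a and CD11b+, 45 were apart, 9 higher in iCD8a and 36 higher in CD11b+, or 23.4% beside 18.2% of all genes tested. Between ILC1 and CD11b+, 38 were apart, 5 higher in ILC1 and 33 higher in CD11b+, or 19.8% beside 17.8% of all genes tested. By direction, the background shares were 3.21% and 4.34% in the first pair, 5.61% and 12.6% in the second, and 5.5% and 12.3% in the last, with the share higher in CD11b+ named second in both pairs that hold it. In at least 1 pair 57 carriers (29.7%) were apart, beside 24.6% of all genes tested. The minimum that chose the carriers used these same levels, so the counts describe the set and support nothing about it.

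**Figure D1:**
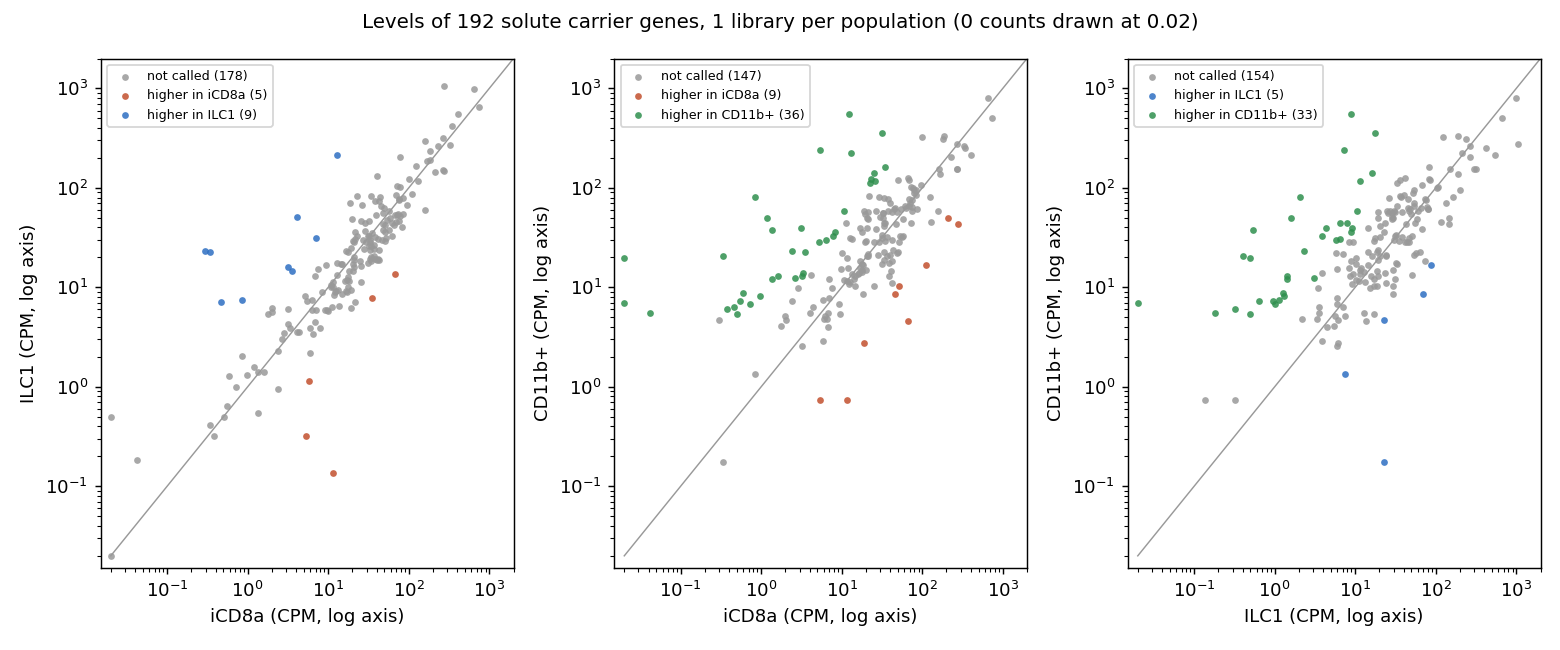
Levels of the 192 solute carrier genes in each pair of libraries, in TMM-scaled CPM on log axes, with 1 point per gene and the diagonal drawn in grey. Coloured points are apart by the 4-fold rule, 14, 45 and 38 in the panels from left to right, and most coloured points in the CD11b+ panels lie on the CD11b+ side.

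The choice of the set shapes these counts in a known way. Of the 192 carriers, 146 reached 5 unscaled CPM in all 3 libraries, 10 in exactly 2 and 36 in exactly 1. Those 36 passed through CD11b+ alone in 23 cases, ILC1 alone in 7 and iCD8a alone in 6. On the unscaled CPM scale the carriers just inside the minimum were Slc26a3 (highest level 5.05 CPM), Slc4a11 (5.15 CPM) and Slc25a26 (5.15 CPM), and those just outside were Slc12a8 (4.92 CPM), Slc5a11 (4.75 CPM) and Slc12a5 (4.62 CPM). All 6 had their highest level in CD11b+.

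The median log2 ratio over the 192 carriers was 0.12 (iCD8a over ILC1), -0.19 (iCD8a over CD11b+) and -0.36 (ILC1 over CD11b+), beside 0.06, 0.09 and 0.03 over all genes tested. The second of these medians depended on the scaling, because unscaled CPM moves every log2 ratio up by 0.14, 0.24 and 0.10 in the same order and turned it to 0.04, beside 0.33 over all genes tested. CD11b+ was the highest library for 93 carriers, iCD8a for 51 and ILC1 for 48, beside 36.8%, 33.6% and 29.6% of all genes tested. Across the 192 genes, which are not independent replicates, levels ranked alike in iCD8a and ILC1 (Spearman's rho 0.875) and less alike for iCD8a and CD11b+ (0.686) and ILC1 and CD11b+ (0.688). The same coefficients over all genes tested were 0.891, 0.718 and 0.724.

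Sorted by substrate, the 192 fell into 8 classes and 5 genes outside them. Mitochondrial carriers were the largest class with 36 expressed members of 48 in the files, and 27 of 33 metal carriers and 24 of 31 carriers of nucleosides and nucleotide sugars were expressed. Fewer of the listed genes were expressed among carriers of amino acids and peptides (29 of 61), sugars and polyols (13 of 29), inorganic ions (24 of 55), monocarboxylates (6 of 14) and the broad class of vitamins, lipids and organic ions (28 of 91).

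**Figure D2:**
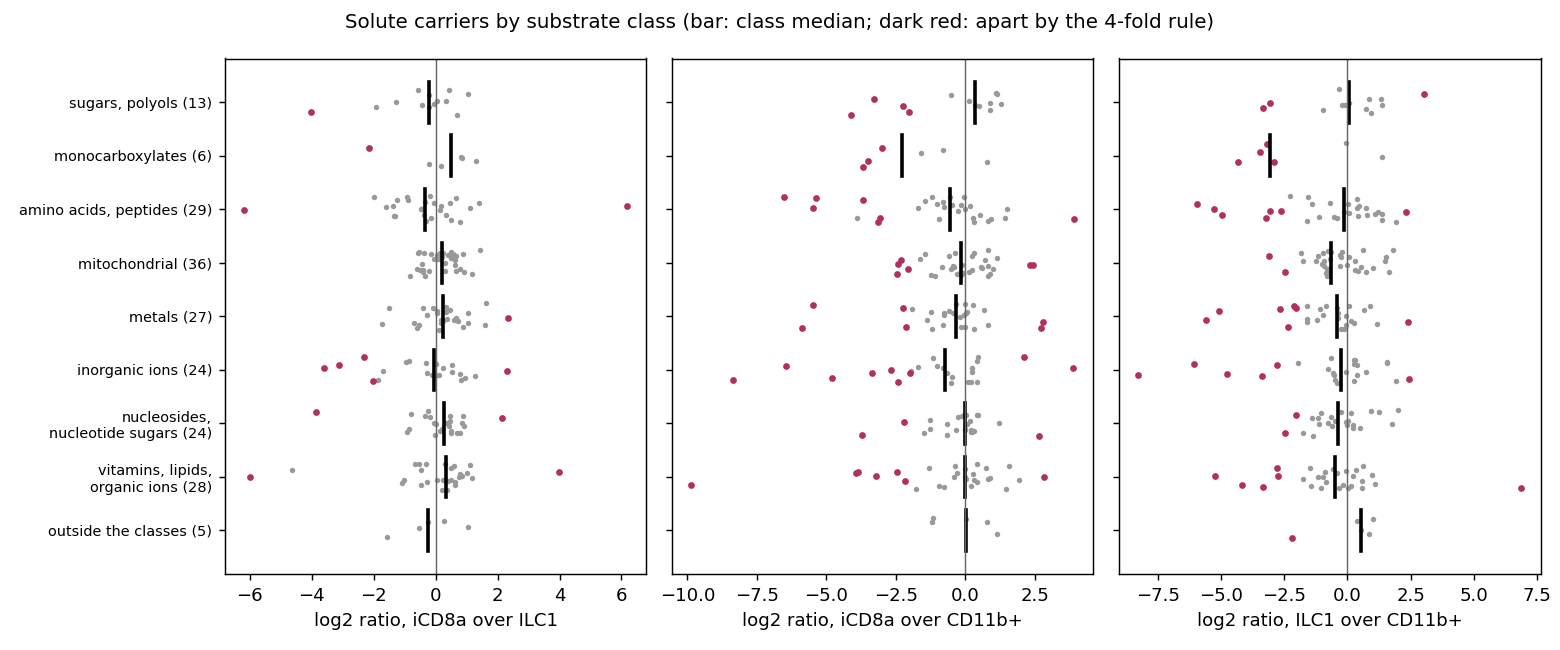
log2 ratios of the 192 carriers by substrate class for the 3 pairs of libraries, with 1 point per gene, dark red where the gene was apart by the 4-fold rule and a black bar at the class median. The class of 6 monocarboxylate carriers has medians of -2.29 (iCD8a over CD11b+) and -3.04 (ILC1 over CD11b+), and 0 of the 36 mitochondrial carriers are apart between iCD8a and ILC1. In the monocarboxylate class, Slc16a5, Slc16a7 and Slc16a13 reached the 5 CPM minimum in CD11b+ alone.

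Among the 13 carriers of sugars and polyols, 1 was apart for iCD8a against ILC1, 4 for iCD8a against CD11b+, all higher in CD11b+, and 3 for ILC1 against CD11b+. Slc2a6, a facilitative hexose carrier found on internal membranes of leukocytes, stood at 13 (iCD8a), 213 (ILC1) and 225 CPM (CD11b+). It was low in iCD8a alone, 16.4-fold (14.6 to 18.5) below ILC1 and 17.3-fold (15.4 to 19.5) below CD11b+. Slc2a1, the ubiquitous glucose carrier, was graded across the libraries at 34.3, 82.5 and 162 CPM. Its 4.71-fold excess (4.37 to 5.09) in CD11b+ over iCD8a came out just under 4-fold with unscaled CPM. Slc2a3, the high-affinity glucose carrier, differed little, at 71.6, 105 and 101 CPM. Per kb of exon, Slc2a6 made up 11.8% of the summed level of 5 glucose-type carriers in iCD8a, 58.4% in ILC1 and 51.8% in CD11b+, while Slc2a1 made up 28.4%, 20.7% and 34.1%. Slc5a3, which takes up myo-inositol with sodium, peaked in ILC1 at 70.2 CPM, against 18.5 CPM in iCD8a and 8.65 CPM in CD11b+. Its excess over CD11b+ was 8.11-fold (7.08 to 9.32), whereas its 3.79-fold excess over iCD8a missed the rule. Slc37a2, a sugar-phosphate carrier of the endoplasmic reticulum, was highest in CD11b+ at 32.6 CPM, against 7.91 and 3.86 CPM in iCD8a and ILC1, but was 3.49-fold above iCD8a with unscaled CPM.

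The 6 monocarboxylate carriers gave the lowest class medians against CD11b+. Slc16a5, Slc16a7 and Slc16a13 reached the 5 CPM minimum in CD11b+ alone, so these medians follow in part from the choice of the set. Slc16a3, the carrier through which glycolytic cells release lactate, stood at 31.3 (iCD8a), 17.8 (ILC1) and 355 CPM (CD11b+). The CD11b+ level was 11.4-fold (10.5 to 12.3) above iCD8a and 20-fold (18.1 to 22.2) above ILC1. Slc16a1, the broadly expressed carrier that works in both directions, had the opposite emphasis, with 6.98, 31.4 and 12.2 CPM and a 4.50-fold (3.79 to 5.36) excess in ILC1 over iCD8a. Of the summed level per kb of this pair of genes, Slc16a3 therefore held 78.8% in iCD8a, 32% in ILC1 and 96.1% in CD11b+. Slc16a7, a high-affinity pyruvate carrier, was low at 0.55, 0.636 and 7.30 CPM, and Slc16a13, whose substrates are poorly known, at 2.41, 0.954 and 7.23 CPM. Slc16a6 led the class per kb in iCD8a and ILC1 and was near level, at 268, 150.3 and 156 CPM. Its exons overlap those of another annotated gene by over 20% of their bases, so its level is uncertain.

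From the list of monocarboxylate carrier partners and glycolytic enzymes, 18 of 18 genes were expressed. Higher levels in CD11b+ were counted for 4 of them against iCD8a (22.2%) and 3 against ILC1 (16.7%), beside 12.6% and 12.3% of all genes tested. The median log2 ratios over CD11b+ were -1.12 and -0.93. Higher in ILC1 than in iCD8a were 2 genes (11.1%), beside 4.34% of all genes tested. Ldha, the lactate dehydrogenase subunit, stood at 245, 254 and 624 CPM and did not meet the rule in any pair. The chaperones that bring these carriers to the surface did not meet the rule either: Bsg stood at 131, 121 and 164 CPM, and Emb at 383, 786 and 380 CPM.

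Of the 29 carriers of amino acids and peptides, 2 were apart for iCD8a against ILC1, 7 for iCD8a against CD11b+ and 7 for ILC1 against CD11b+, with 6 of the 7 higher in CD11b+ in each case. Slc3a2, the heavy chain that carries several Slc7 light chains to the membrane, led the class per kb in every library and stood at 739.8 (iCD8a), 658 (ILC1) and 507 CPM (CD11b+). Its partners were distributed unequally. Slc7a11, the light chain of the cystine and glutamate exchanger that feeds glutathione synthesis, stood at 0.846, 2.04 and 80.5 CPM. It was 95.1-fold (61.4 to 156) higher in CD11b+ than in iCD8a and 39.4-fold (29.3 to 54.1) higher than in ILC1. Slc7a8, a light chain for neutral amino acids, stood at 1.18, 1.59 and 49.7 CPM, and the excess in CD11b+ was 42.0-fold (28.9 to 63.4) and 31.3-fold (22.4 to 45.1). Slc7a7, the light chain that exports cationic amino acids, stood at 3.13, 4.32 and 39.98 CPM. Slc7a5, the light chain best known from activated lymphocytes, did not meet the rule in any pair at 19.6, 48.8 and 54.1 CPM, nor did Slc7a6 at 25.4, 46.8 and 28.3 CPM. Per kb, Slc7a5 and Slc7a6 together held most of the summed light-chain level outside CD11b+, with 43.7% and 46% in iCD8a and 52.3% and 40.7% in ILC1. In CD11b+ the level was spread over all 5, with 30.04% for Slc7a5, 24.8% for Slc7a7, 20.5% for Slc7a8, 12.7% for Slc7a6 and 11.9% for Slc7a11. Slc7a7, Slc7a8 and Slc7a11 reached the 5 CPM minimum in CD11b+ alone, so this contrast follows in part from the choice of the set.

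The promoters of Slc7a11 and Slc7a7 are shown because both light chains had their highest level in CD11b+. Each gene also has at least 1 window with the letters TGATGNAA, the core of the amino acid response element bound by Atf4. Slc26a10, an anion carrier family member that was highest in iCD8a, is shown beside them as a gene with the same letters and another distribution. The sequences are RefSeq windows of the GRCm38.p6 build, all on the minus strand and running 5′ to 3′ from 250 bases before to 50 bases after the annotated start, at chr3:50443564-50443863 for Slc7a11, chr14:54417895-54418194 for 1 of the 5 Slc7a7 starts, and chr10:127180533-127180832 for Slc26a10. Capitals mark matches on either strand. The Slc7a7 windows at chr14:54409423-54409722, chr14:54410154-54410453 and chr14:54417630-54417929 hold no match and are not printed. Its window at chr14:54417653-54417952 overlaps the printed one, holds TGATGCAA 243 bases before its own start and is not printed either.
Slc7a11: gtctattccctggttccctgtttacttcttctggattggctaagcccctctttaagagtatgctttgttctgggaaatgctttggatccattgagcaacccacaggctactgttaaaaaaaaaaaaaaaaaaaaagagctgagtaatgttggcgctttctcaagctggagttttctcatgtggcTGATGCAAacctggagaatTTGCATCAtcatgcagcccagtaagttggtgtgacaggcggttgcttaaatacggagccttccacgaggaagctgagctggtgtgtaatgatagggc
Slc7a7: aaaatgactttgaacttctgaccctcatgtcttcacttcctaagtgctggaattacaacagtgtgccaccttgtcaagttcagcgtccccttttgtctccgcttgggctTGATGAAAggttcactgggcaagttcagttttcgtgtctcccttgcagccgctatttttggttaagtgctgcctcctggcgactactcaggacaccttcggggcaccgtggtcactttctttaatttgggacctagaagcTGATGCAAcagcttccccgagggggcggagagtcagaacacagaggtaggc
Slc26a10: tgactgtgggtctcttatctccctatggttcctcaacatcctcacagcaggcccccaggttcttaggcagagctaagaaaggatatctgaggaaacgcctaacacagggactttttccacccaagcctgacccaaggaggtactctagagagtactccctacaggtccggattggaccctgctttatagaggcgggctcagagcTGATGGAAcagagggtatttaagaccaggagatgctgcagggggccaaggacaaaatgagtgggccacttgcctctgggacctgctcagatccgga
The matches begin 66 and 47 bases before the start in Slc7a11, 141 bases and 1 base before it in Slc7a7, and 46 bases before it in Slc26a10. In the table of promoters, 145 of the 192 carriers had an entry, with 192 windows between them. The letters occurred in 6 of those 192 windows (3.13%), beside 3.97% of all 32851 windows, and the 5 genes with a match were Slc26a10, Slc50a1, Slc7a11, Slc7a7 and Slc9a9. Among the 21 carriers with an entry that were higher in CD11b+ than in both other libraries, Slc7a11 and Slc7a7 were the 2 with a match. They made up 9.52% of the 21, beside 4.51% of all genes with a promoter entry. Both reached the 5 CPM minimum in CD11b+ alone, and Slc7a7 has 5 windows in which a match could occur. The difference between these shares rests on 2 genes and was not tested. The other motifs searched on both strands occurred as follows in the carriers' windows and in all windows: the PU.1 letters GAGGAAGT in 2.08% and 3.20%, the T-box letters AGGTGTGA in 0.521% and 1.28%, the HNF4 letters CAAAGTCCA in 0% and 0.475%, the antioxidant response letters TGACNNNGC in 20.3% and 12.4%, and the metal response letters TGCNCNC in 56.3% and 51%. Each motif was counted on its own, so matches of different motifs may overlap, and a match is a run of letters, not a measured binding site.

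Atf4 itself was highest in ILC1, at 274 (iCD8a), 651 (ILC1) and 309 CPM (CD11b+). Of 25 listed genes of the amino acid response and mTORC1, 22 were expressed. Higher levels in CD11b+ were counted for 2 against iCD8a (Sesn2 and Castor1) and 1 against ILC1 (Sesn2). These were 9.09% and 4.55%, beside 12.6% and 12.3% of all genes tested. The median log2 ratios over CD11b+ were -0.15 and -0.52. In the other direction, 1 gene, the serine synthesis enzyme Phgdh, was lower in CD11b+ than in both others, at 21.2, 17.9 and 3.79 CPM. Of 16 listed glutathione and arginine genes 15 were expressed. CD11b+ was higher for 8 of them against iCD8a (53.3%) and 5 against ILC1 (33.3%), beside 12.6% and 12.3% of all genes tested. The median log2 ratios were -2.23 and -1.22. Examples apart in both pairs were Gpx1, Gsr and Ass1. Gpx1, which reduces hydrogen peroxide with glutathione, stood at 70.2, 46.8 and 609 CPM. Gsr, which regenerates reduced glutathione, stood at 54.9, 29.7 and 367 CPM. Ass1, which makes the precursor of arginine from citrulline, stood at 4.61, 1.27 and 79.0 CPM. The 8 also held Odc1, at 115, 1261 and 537 CPM, and Nos2, at 0.592, 5.27 and 8.68 CPM. For Odc1 and Nos2, ILC1 also exceeded iCD8a by the rule, and ILC1 and CD11b+ were not apart. The glutathione synthesis genes Gclc (47.2, 70.9 and 54.3 CPM), Gclm (18.4, 8.13 and 17.8 CPM) and Gss (18.1, 12.4 and 28.9 CPM) met the rule in no pair. Nor did Gpx4, lowest in CD11b+ at 220, 220 and 137 CPM.

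Slc15a3, which exports histidine and small peptides from lysosomes, had the highest level per kb in CD11b+ (101 CPM per kb) of the carriers higher there than in both other libraries. It stood at 12.3 (iCD8a), 8.91 (ILC1) and 554 CPM (CD11b+), an excess of 45.1-fold (40.2 to 50.8) and 62.2-fold (54.0 to 71.9). Tmem132a, annotated on the other strand, shares 28.1% of its exon bases, so reads of the pair may not be told apart. Its paralogue Slc15a4 varied less, at 32.3, 25.8 and 55.9 CPM, and the oligopeptide carrier Slc15a2 was highest in ILC1 at 67.3 CPM, against 26.3 and 38.9 CPM. Per kb, Slc15a3 held 86.4% of the summed level of these 3 genes in CD11b+, 18.8% in iCD8a and 10.4% in ILC1. Of the 7 matched genes of endosomal Toll-like receptor signalling, which depends on lysosomal transport, CD11b+ was higher for 3 against iCD8a and 5 against ILC1. These were 42.9% and 71.4%, beside 12.6% and 12.3% of all genes tested, with median log2 ratios of -1.42 and -3.26. Among the 7, Unc93b1, the chaperone of these receptors, stood at 119.6, 53.3 and 889.7 CPM, and Irf5 at 29.6, 104 and 478 CPM. The receptors Tlr7, at 35.7, 5.04 and 48.7 CPM, and Tlr9, at 11.3, 0.136 and 22.4 CPM, were not apart between iCD8a and CD11b+. Both were higher in iCD8a than in ILC1, by 7.08-fold (5.80 to 8.71) and 83.2-fold (28.2 to 406).

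Amino acid carriers that met the rule with a higher level in iCD8a or ILC1 were few. Slc38a2, the sodium-coupled neutral amino acid carrier that responds to amino acid supply, reached 1063 CPM in ILC1, against 270.4 CPM in iCD8a and 279 CPM in CD11b+. Its 3.93-fold (3.82 to 4.04) and 3.81-fold (3.71 to 3.90) excess narrowly missed the rule. Slc6a20a, a proline carrier of absorptive epithelium, stood at 0.296, 23.1 and 4.68 CPM, with 7, 508 and 132 counts, and was 77.9-fold (37.5 to 195) above iCD8a and 4.93-fold (4.07 to 6.02) above CD11b+ in ILC1. Ccr9 and other genes on the opposite strand share 14.3% of its exon bases. Its close paralogue Slc6a20b, below the minimum, had 5, 38 and 2 counts. Slc38a8, a glutamine carrier known mostly from the retina, was detected mainly in iCD8a with 272 counts, against 3 in ILC1 and 21 in CD11b+. The ratios were 84.4 (28.6 to 412) and 15.5 (9.91 to 25.4). Several carriers of the class were near level, including the glutamine carrier Slc1a5 at 231, 264 and 203 CPM and Slc38a1 at 182, 237 and 313 CPM.

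Mitochondrial carriers were the most even class between iCD8a and ILC1, with 0 of 36 apart for that pair, 6 for iCD8a against CD11b+ and 2 for ILC1 against CD11b+. Of the 36, 15 had counting intervals within 2-fold in all 3 pairs. Slc25a3, which imports phosphate for ATP synthesis, stood at 647, 984 and 803 CPM. Slc25a5, the main exchanger of ATP and ADP in dividing cells, stood at 184, 189 and 329 CPM and held 75.6%, 83.2% and 83.0% of the summed level per kb of Slc25a4 and Slc25a5. The carriers apart in CD11b+ from both other libraries were Slc25a33, a pyrimidine nucleotide carrier, and Slc8b1, described with the calcium carriers. Slc25a33 stood at 10.8, 10.6 and 58.2 CPM, with an excess in CD11b+ of 5.37-fold (4.71 to 6.15) and 5.50-fold (4.79 to 6.33). Slc25a20, which imports acylcarnitines for fatty acid oxidation, was 4.99-fold (4.55 to 5.48) higher in CD11b+ than in iCD8a, at 22.6, 33.2 and 112 CPM. Slc25a12 and Slc25a13, which exchange aspartate and glutamate, differed in emphasis: Slc25a13 held 8.13% of their summed level per kb in iCD8a, 12.1% in ILC1 and 37.9% in CD11b+. Slc25a13 reached the 5 CPM minimum in CD11b+ alone, so these shares follow in part from the choice of the set. Higher in iCD8a than in CD11b+ were Slc25a23, a calcium-regulated ATP and phosphate carrier, at 50.9, 29.4 and 10.2 CPM, and the orphan carrier Slc25a53 at 46.5, 29.7 and 8.51 CPM.

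Among the 27 carriers of zinc, iron, copper, magnesium and heme, 1 was apart for iCD8a against ILC1, 6 for iCD8a against CD11b+ and 7 for ILC1 against CD11b+. Slc11a1, the divalent metal pump of phagosomes whose variants alter resistance to intracellular bacteria in mice, stood at 5.46 (iCD8a), 7.22 (ILC1) and 243 CPM (CD11b+). The excess in CD11b+ was 44.4-fold (37.3 to 53.3) and 33.6-fold (28.7 to 39.5). Slc11a2, its paralogue for endosomal and dietary iron, was near level at 29, 44.4 and 28.5 CPM. Slc40a1, ferroportin, the only known cellular iron exporter, stood at 0.339, 0.409 and 20.9 CPM, with 8, 9 and 589 counts, an excess of 61.7-fold (31.1 to 144) and 51.1-fold (26.7 to 112). Of 18 listed iron handling genes 11 were expressed, and CD11b+ was higher for 4 against iCD8a and 5 against ILC1. These were 36.4% and 45.5%, beside 12.6% and 12.3% of all genes tested, and the median log2 ratios were -1.62 and -1.01. Fth1, the ferritin heavy chain, stood at 847, 827 and 3497 CPM, Hmox1, which releases iron from heme, at 8.67, 5.36 and 60.2 CPM, and Tfrc, the transferrin receptor, at 68.9, 148 and 211 CPM.

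Zinc and copper carriers gave smaller excesses. Slc30a1, which exports zinc, stood at 8.34, 8.91 and 36.3 CPM, and its 4.35-fold and 4.08-fold excess in CD11b+ came to 3.69 and 3.80 with unscaled CPM, below the rule. The copper carrier Slc31a2 stood at 6.31, 5.86 and 29.7 CPM and came out just under 4-fold above iCD8a with unscaled CPM, and the zinc carrier Slc39a11 at 16.9, 9.22 and 39.98 CPM. Mt1, a zinc-binding metallothionein, had 10.9, 2.82 and 73.0 CPM. Slc39a4 is the zinc importer mutated in acrodermatitis enteropathica. It was the 1 carrier of all 192 that was lower in CD11b+ than in both other libraries, beside 2.42% of all genes tested. It stood at 110.2 (iCD8a), 86.9 (ILC1) and 16.7 CPM (CD11b+), or 6.60-fold (5.98 to 7.29) and 5.21-fold (4.70 to 5.77) lower. It is on the enterocyte list. Slc39a5, a basolateral zinc importer of epithelia, was low in ILC1 at 1.14 CPM, against 5.84 and 7.41 CPM. The magnesium carrier Slc41a2 was highest in iCD8a at 19 CPM, against 6.18 CPM in ILC1 and 2.73 CPM in CD11b+, from which it was apart by 6.95-fold (5.44 to 8.97).

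Inorganic ion carriers held the most differences between iCD8a and ILC1: 5 of 24 were apart for that pair, 9 for iCD8a against CD11b+ and 6 for ILC1 against CD11b+. Sodium-calcium exchangers of the Slc8 family had their highest levels in CD11b+, where alone Slc8a1 and Slc8a2 reached the 5 CPM minimum. Slc8a1, the exchanger that extrudes calcium from excitable and other cells, stood at 1.35, 0.545 and 37.8 CPM, an excess of 27.9-fold (19.7 to 41) and 69.4-fold (39.5 to 135). Slc8a2 had 0 counts in iCD8a, 0 in ILC1 and 197 in CD11b+, at least 55-fold and 51.2-fold higher in CD11b+ against a floor of 3 counts per library. Slc8b1, the mitochondrial sodium-calcium exchanger, was expressed in every library at 25.4, 16.2 and 139.7 CPM. Slc4a11, a proton or borate carrier of disputed function, was apart on few counts, with 1, 4 and 157, which gave ratios of 132 (23.3 to 5227) and 30.6 (11.7 to 114).

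Several chloride and anion carriers had their highest or lowest level in iCD8a. Slc26a10 stood at 67.5 (iCD8a), 13.5 (ILC1) and 4.61 CPM (CD11b+), higher in iCD8a by 4.99-fold (4.4 to 5.66) and 14.7-fold (12.3 to 17.7). B4galnt1 shares 17.8% of its exon bases, so its level carries that uncertainty. Slc26a11, a sulfate and chloride carrier, was highest in ILC1, at 4.15, 51.1 and 13.4 CPM, and 12.3-fold (10.02 to 15.3) above iCD8a. Slc24a1, a potassium-dependent sodium-calcium exchanger known from rod photoreceptors, was also highest in ILC1 at 0.846, 7.45 and 1.35 CPM. Slc12a7, a potassium-chloride cotransporter that lets cells lose volume, was 4.28-fold (4.03 to 4.55) higher in iCD8a than in CD11b+, at 211, 145 and 49.3 CPM. Per kb it held 52.8%, 40.9% and 17.3% of the summed level of 3 such cotransporters. Slc12a2, the sodium-potassium-chloride cotransporter that works in the opposite direction, was lowest in iCD8a at 3.51 CPM, against 14.4 and 22.4 CPM. Slc9a7, a sodium-proton exchanger of the Golgi, was lowest there too, at 3.22, 15.9 and 12.9 CPM. With unscaled CPM neither gene was lower in iCD8a than in both others, at 3.74-fold against ILC1 for Slc12a2 and 3.41-fold against CD11b+ for Slc9a7. Slc4a7, a bicarbonate importer, was 5.34-fold (4.87 to 5.85) higher in CD11b+ than in iCD8a, at 23, 83.7 and 123 CPM. Slc20a1, the phosphate importer, led the class per kb in all 3 libraries and was near level at 341, 418 and 253 CPM. Of 12 expressed genes on a list of ion pumps and carbonic anhydrases, 3 were higher in iCD8a and 3 in ILC1 when set against CD11b+. That is 25% in each pair, beside 5.61% and 5.5% of all genes tested. None of the 12 was higher in CD11b+, and the median log2 ratios over CD11b+ were -0.60 and -0.19. Car2, a carbonic anhydrase, was among the higher genes in both pairs, at 504, 1127 and 76.5 CPM. Car4, another, was highest in CD11b+ at 0.508, 0.545 and 5.32 CPM, but its unscaled 4.92 CPM left it below the minimum.

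Carriers of nucleosides and nucleotide sugars were comparatively even, with 2 of 24 apart for iCD8a against ILC1, 3 for iCD8a against CD11b+ and 2 for ILC1 against CD11b+. The nucleotide sugar carriers that supply the Golgi made up most of the class, and Slc35a3, which imports UDP-N-acetylglucosamine, had levels of 75.1, 74.9 and 74.9 CPM. The orphan member Slc35e4 was higher in CD11b+ at 2.67, 3.04 and 12.5 CPM, by 4.69-fold (3.58 to 6.24) and 4.11-fold (3.16 to 5.42), and missed the rule at 3.98-fold and 3.83-fold with unscaled CPM. The other differences lay among nucleoside carriers. Slc28a2, which concentrates purine nucleosides with sodium, stood at 275 (iCD8a), 147 (ILC1) and 43.7 CPM (CD11b+), a 6.28-fold (5.91 to 6.68) excess of iCD8a over CD11b+. It is on the enterocyte list too. Slc29a2, an equilibrative nucleoside carrier, was nearly undetected in iCD8a at 0.465 CPM, against 7.09 and 6.38 CPM, a deficit of 15.2-fold (8.28 to 31.1) and 13.7-fold (7.48 to 28). Slc29a3, the lysosomal nucleoside exporter, was low in ILC1 at 7.86 CPM, against 34.9 CPM in iCD8a and 44.1 CPM in CD11b+, or 4.44-fold (3.77 to 5.26) and 5.61-fold (4.78 to 6.61) lower. Slc29a1 varied least of the 3, at 37.2, 26.9 and 59.2 CPM, and held 60.2%, 64.4% and 60.4% of their summed level per kb.

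In the broad class of vitamins, lipids and organic ions, 2 of 28 were apart for iCD8a against ILC1, 7 for iCD8a against CD11b+ and 6 for ILC1 against CD11b+. Fatty acid transport proteins, which take up long-chain fatty acids and link them to coenzyme A, had their highest levels in different libraries. Slc27a6 stood at 0.339, 22.9 and 0.177 CPM, with 8, 504 and 5 counts, so that ILC1 was 67.6-fold (34.1 to 158) above iCD8a and 129-fold (55 to 399.7) above CD11b+. Slc27a2 was detected mainly in CD11b+, at 0.381, 0.318 and 6.06 CPM. Slc27a1 was highest in iCD8a at 38.6, 19.3 and 13.1 CPM, and Slc27a4 in CD11b+ at 20.4, 14.5 and 39.5 CPM, neither meeting the rule. Per kb, the largest share of the family therefore belonged to Slc27a1 in iCD8a (57.6%), Slc27a6 in ILC1 (58.0%) and Slc27a4 in CD11b+ (69.4%). Slc27a6 reached the 5 CPM minimum in ILC1 alone and Slc27a2 in CD11b+ alone, so these shares follow in part from the choice of the set.

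Slc46a3, a lysosomal carrier, led the same class per kb in CD11b+ and stood at 25.7, 11.4 and 116 CPM, an excess of 4.52-fold (4.14 to 4.93) and 10.2-fold (8.96 to 11.6). The first of these came to 3.83-fold with unscaled CPM. Slc44a5, of the choline carrier family, had 0 counts in iCD8a, 11 in ILC1 and 555 in CD11b+, at least 155-fold above the iCD8a floor of 3 counts and 39.4-fold (21.8 to 79.3) above ILC1. Its relative Slc44a2 led the class per kb in iCD8a and ILC1 and was near level at 327, 267 and 262 CPM. Slc17a8, which loads glutamate into synaptic vesicles, was highest in iCD8a at 5.37 CPM, against 0.318 and 0.744 CPM. Slc6a8, the creatine importer, was 5.48-fold (4.52 to 6.68) higher in CD11b+ than in iCD8a, at 5.16, 8.27 and 28.3 CPM.

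The 5 genes outside the classes share the symbol but are not known as carriers of a defined substrate. Slc9a3r1 and Slc9a3r2 are scaffold proteins that bind carriers at the membrane, and stood at 269, 315 and 155 CPM and at 13.5, 6.54 and 30.3 CPM. Slc9a3r2 was 4.64-fold (3.88 to 5.57) higher in CD11b+ than in ILC1, the 1 difference among the 5. The others were Slc7a6os, Slc4a1ap and Slc35g1.

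**Figure D3:**
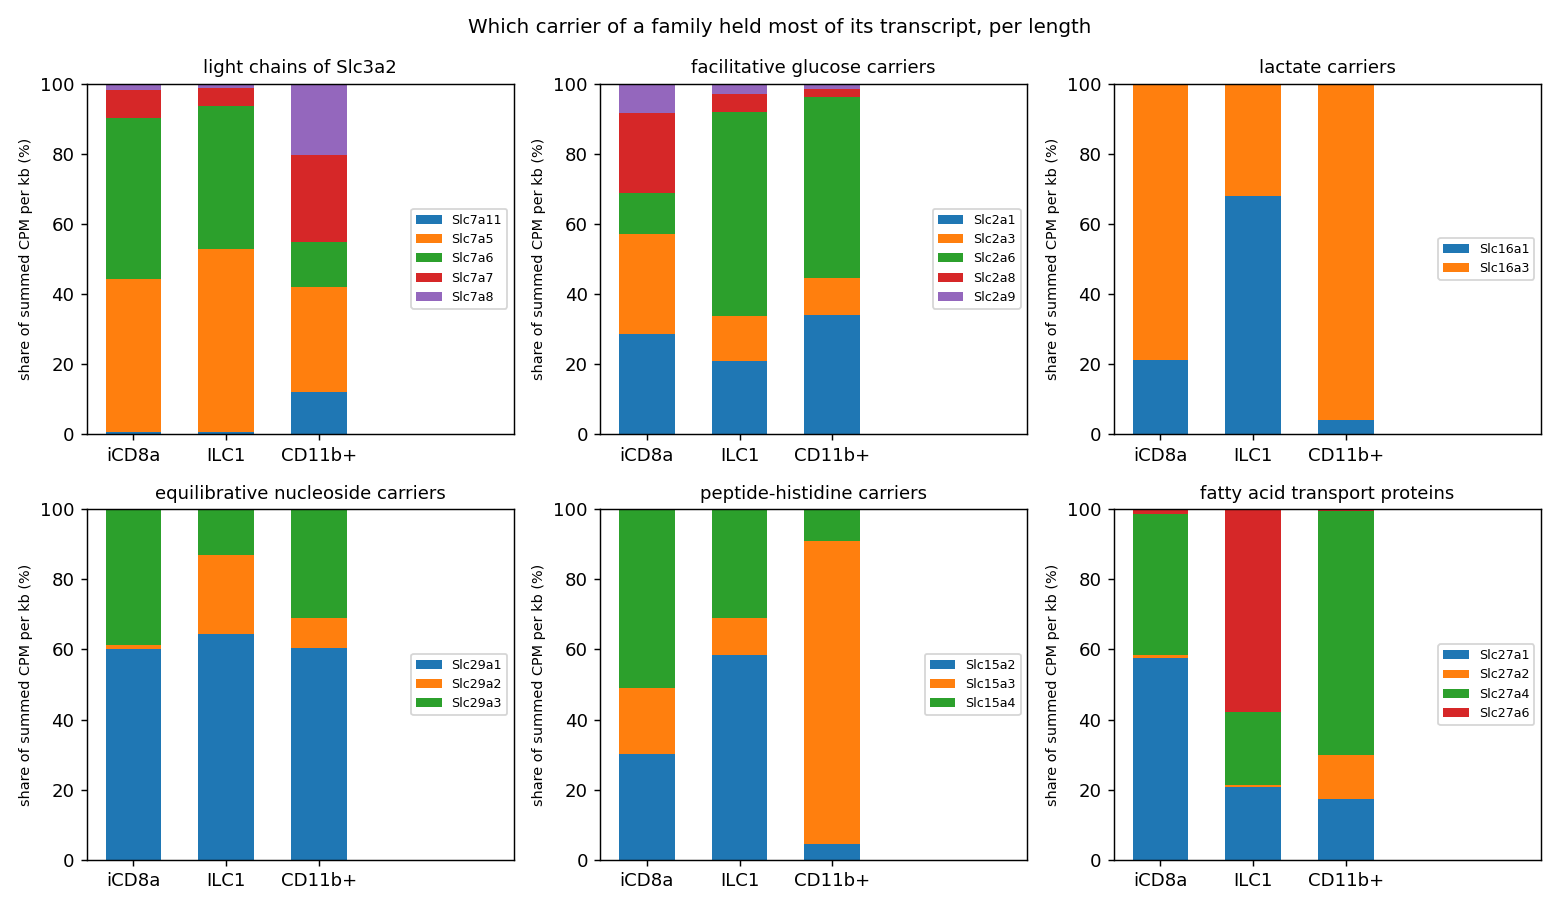
Share of each gene in the summed level per kb of 6 carrier families, in percent of the TMM-scaled CPM per kb of exon, with 1 stacked bar per library. Slc16a3 fills 96.1% of the lactate carrier bar in CD11b+ and 32% in ILC1, Slc15a3 fills 86.4% of the peptide-histidine bar in CD11b+, and Slc27a6 fills 58.0% of the fatty acid bar in ILC1. Slc27a6 reached the 5 CPM minimum in ILC1 alone, and Slc7a7, Slc7a8, Slc7a11 and Slc27a2 in CD11b+ alone, which shapes these shares.

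Carriers that stood apart from both other libraries in the same direction numbered 27 higher in CD11b+, 3 higher in ILC1 and 3 higher in iCD8a, beside 9.87%, 1.63% and 1.46% of all genes tested. Lower than in both others were 1 in CD11b+, 2 in ILC1 (Slc29a3 and Slc39a5) and 4 in iCD8a (Slc2a6, Slc29a2, Slc12a2 and Slc9a7), beside 2.42%, 1.45% and 2.17%. Those higher in iCD8a were Slc38a8, Slc17a8 and Slc26a10, and those higher in ILC1 were Slc27a6, Slc6a20a and Slc24a1. Slc38a8 and Slc17a8 reached the 5 CPM minimum in iCD8a alone, and Slc27a6, Slc6a20a and Slc24a1 in ILC1 alone. The direction of these genes therefore follows from that minimum. The 27 in CD11b+ spanned every class of substrate, and many of them likewise reached the minimum there alone, as named below. Macrophage markers moved with the 27, 11 of 12 being higher in CD11b+ than in iCD8a and 12 of 12 higher than in ILC1. The share of counts from the mitochondrial genome was also highest in CD11b+, at 9.53% against 1.60% (iCD8a) and 2.09% (ILC1). With these genes removed before scaling the count stayed at 27. That removal shifted log2 ratios by only 0.00797 (iCD8a over ILC1), 0.00802 (iCD8a over CD11b+) and 5.8e-05 (ILC1 over CD11b+). The unchanged count therefore cannot show whether that share matters. For the carriers higher in ILC1, 7 of 9 natural killer cell and ILC1 markers were higher than in iCD8a and 9 of 9 higher than in CD11b+. ILC1 also exceeded iCD8a for 8 of 12 macrophage markers, whose median log2 ratio of iCD8a over ILC1 was -4.03. For those higher in iCD8a, 4 of 8 plasmacytoid dendritic cell markers were higher than in each other library. The part of these cell types in the results was not tested. With unscaled CPM the count for CD11b+ was 22 in place of 27.

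**Figure D4:**
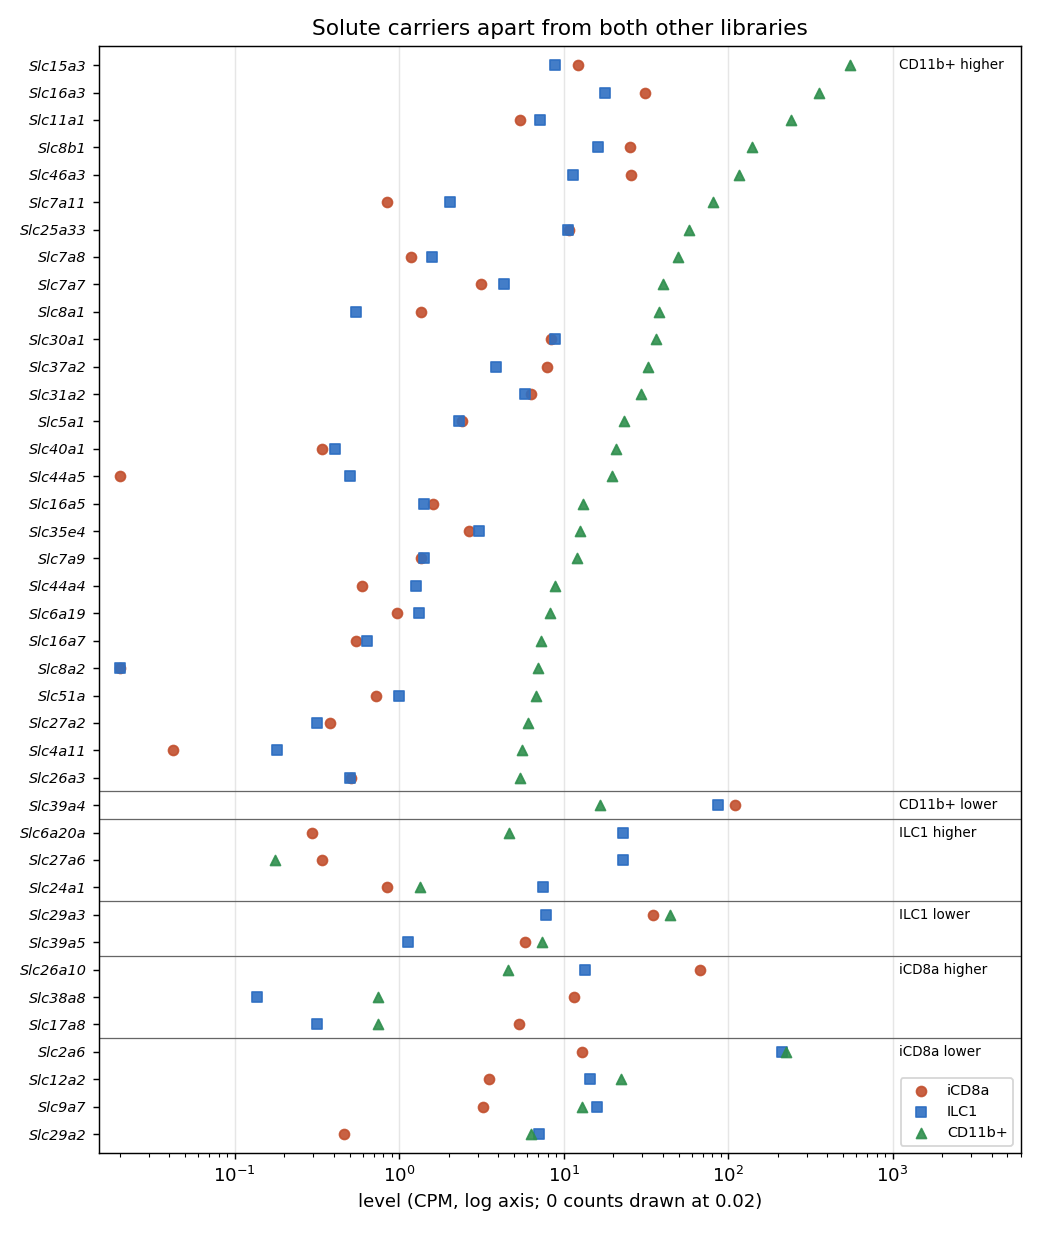
Levels in TMM-scaled CPM on a log axis of the 40 calls against both other libraries, with 1 row per gene and 1 symbol per library, grouped by the library that stands apart and the direction. The CD11b+ symbol lies to the right in the 27 rows of the first group, and Slc15a3 reaches 554 CPM. Many of the genes in the higher groups reached the 5 CPM minimum only in the library where they stand highest.

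Absorptive enterocytes express many of the same genes, and of 36 listed enterocyte transporters 16 reached the minimum. Against CD11b+, 2 of the 16 were higher and 8 lower in iCD8a, and 2 were higher and 8 lower in ILC1. The 8 are 50% in each pair, beside 12.6% and 12.3% of all genes tested. The 2 are 12.5%, beside 5.61% and 5.5%. The median log2 ratios were -2.84 and -2.28. The 7 that were higher in CD11b+ than in both others were Slc5a1, Slc6a19, Slc7a9, Slc16a5, Slc26a3, Slc44a4 and Slc51a. All 7 reached the 5 CPM minimum in CD11b+ alone. Their direction, and in part the shares and medians of the 16, therefore follow from that minimum. Slc5a1, the sodium-glucose cotransporter of the brush border, stood at 2.41, 2.32 and 23.5 CPM, an excess of 9.73-fold (7.42 to 13) and 10.1-fold (7.61 to 13.7). Slc6a19, which takes up neutral amino acids from the lumen, stood at 0.973, 1.32 and 8.22 CPM. Slc51a, a subunit of the basolateral bile acid exporter, stood at 0.719, 1.000 and 6.84 CPM. The folds of the 7 lay between 8.16 and 14.9 against iCD8a and between 6.24 and 10.9 against ILC1. Epithelial markers moved with them: 24 of 26 were higher in CD11b+ than in iCD8a and 25 of 26 higher than in ILC1, with median log2 ratios of -3.13 and -3.13. The part of epithelial RNA in the levels of these 7 carriers was not tested.

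The 20 other carriers higher in CD11b+ than in both others covered a wider range, with finite folds from 4.12 to 132 against iCD8a and from 4.08 to 69.4 against ILC1. Of the 20, Slc4a11, Slc7a7, Slc7a8, Slc7a11, Slc8a1, Slc8a2, Slc16a7, Slc27a2, Slc35e4, Slc40a1 and Slc44a5 reached the minimum in CD11b+ alone. Their direction therefore follows from that minimum, and Slc4a11 and Slc8a1 among them set the upper ends of these ranges. Leaving out all 16 enterocyte transporters, 176 carriers remained, of which 28 were higher and 7 lower in CD11b+ than in iCD8a, and 25 higher and 3 lower than in ILC1. In either direction, 19.9% and 15.9% of the 176 were apart in these pairs, beside 18.2% and 17.8% of all genes tested. Higher in CD11b+ were 15.9% and 14.2%, beside 12.6% and 12.3%. The median log2 ratios of the 176 were -0.15 (iCD8a over CD11b+) and -0.28 (ILC1 over CD11b+).

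**Figure D5:**
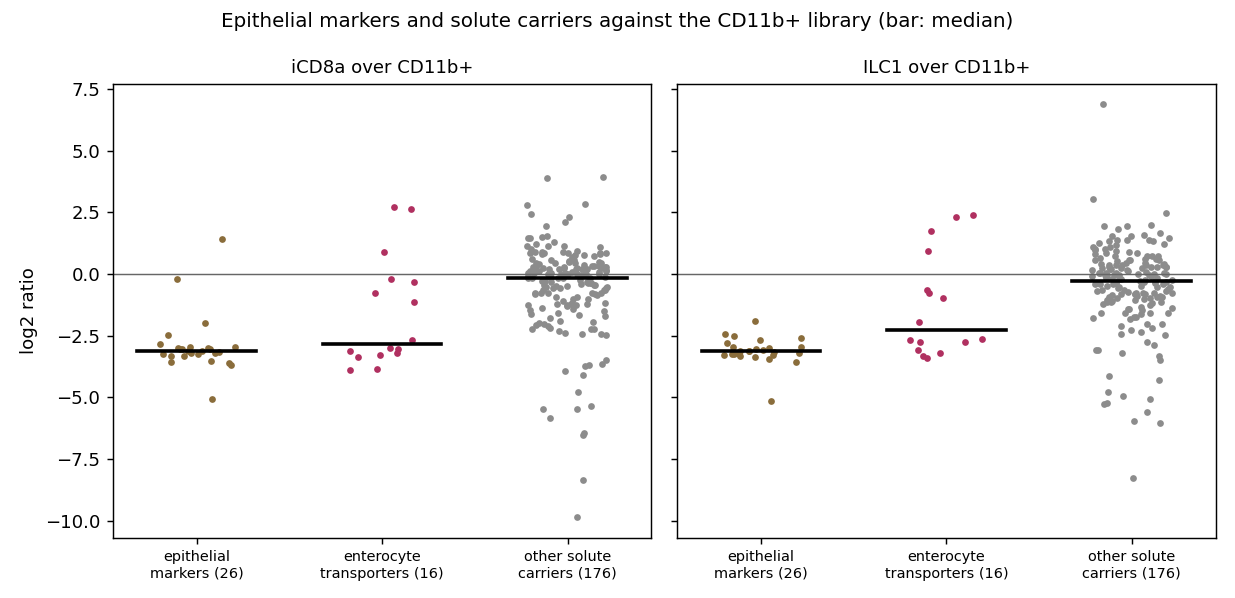
log2 ratios to CD11b+ of iCD8a (left) and ILC1 (right) for 26 epithelial markers, 16 expressed enterocyte transporters and the 176 other carriers, with 1 point per gene and a bar at the median. The marker medians are -3.13 in both panels, those of the enterocyte transporters are -2.84 and -2.28, and those of the other carriers are -0.15 and -0.28. The 7 enterocyte transporters higher in CD11b+ than in both others reached the 5 CPM minimum there alone, which lowers the medians of the 16.

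Carriers whose counting interval stayed within 2-fold in all 3 pairs numbered 64, or 33.3%, beside 42.6% of all genes tested. They included 15 mitochondrial carriers, 11 metal carriers, 10 carriers of nucleosides and nucleotide sugars, 9 ion carriers, 6 amino acid carriers and 4 sugar carriers. Slc35a3 had the most even level, with a ratio of highest to lowest of 1.00. Slc25a25, a calcium-regulated carrier of ATP and phosphate, stood at 47.4, 43.3 and 43.2 CPM. Slc39a7, which releases zinc from the endoplasmic reticulum, stood at 11.5, 11.3 and 11.6 CPM, although 80.7% of its exon bases are shared with another annotated gene. In all, 6 of the 192 carriers share over 20% of their exon bases with another gene, and Slc15a3 is the 1 among them that was apart in any pair. Smaller overlaps with genes on the other strand touch 17.7% of the exon bases of Slc51a and 14.9% of those of Slc25a33.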

How the data were processed

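RNA was extracted with Trizol, per the labels, from 3 sorted populations, 1 library each, grouped by their cell type label. The authors sequenced on an Illumina HiSeq, aligned with TopHat and counted with HTSeq, per the series' design text, and CASAVA 1.9 and TopHat2 stand in the submitters' processing notes. The deposited values are raw counts of reads for each Ensembl gene, not normalized. Neither the genome build nor the annotation or strand setting is given in the sources used here. FPKM values were not used here. Rows that name no gene stayed out of library sizes: alignments that were not unique were 26.9%, 34.5% and 30.5% of all rows in iCD8a, ILC1 and CD11b+, reads in no gene 9.31%, 11.0% and 8.56%, and ambiguous reads 1.08%, 0.889% and 0.922%. Uncounted multiple alignments make near-identical genes uncertain, and without a strand setting overlapping genes cannot be told apart.

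Symbols, biotypes, exon lengths and overlaps came from GENCODE vM21 by Ensembl ID, and promoters from RefSeq. TMM factors from edgeR 4.0.16 in R 4.3.3 were 1.09, 0.992 and 0.925. A fold divides the TMM-normalized count of the higher library by that of the lower, and its 95% interval is the exact conditional binomial (Clopper-Pearson) interval (scipy 1.17.1, numpy 2.4.6, pandas 2.3.3, Python 3.11.15, figures with matplotlib 3.10.9). log2 ratios carry a prior count of 0.5. The reads carry no molecular identifiers and are not independent molecules, so intervals and the floor of 3 counts per library cover counting error only. No residual degrees of freedom remain with 1 library per group. No p-value was therefore computed, and edgeR and DESeq2 1.42.0 served only for factors. The scripts were tested on simulated counts.

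Named are, per pair and direction, up to 8 carriers apart with the largest near bound, the same per library against both others, the 3 with the highest CPM per class, the 3 on either side of the minimum, and examples of listed genes. The carriers and gene lists were chosen with earlier results of these data known. The small families compared per kb, the motifs, the printed promoters and the placing of Slc4a1ap outside the classes were chosen after its values and theirs were seen. Alternatives were other scalings, folds and minimums, thinned libraries, removal of mitochondrially encoded or the 50 most abundant genes, a prior count of 2 and removal of enterocyte transporters. Some marker genes are not reported here by name.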

Additional observations from a re-analysis of the deposited data

How the results depend on the processing

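No paired analysis was possible because each population had 1 library, and for the same reason no library could be left out. Of 180 counts and medians under the alternatives, 127 stayed within 1.5 times the count, or within 0.1 of the median, reported above, and 53 did not. Of 1044 values of single carriers, 0 changed direction and 85 were no longer apart, 43 of them at a fold of 8, 25 at a minimum of 10 CPM and 11 with unscaled CPM. With DESeq2 factors and with mitochondrially encoded genes removed, every pairwise call was kept. Depth limits the folds of carriers with few counts, such as Slc4a11 and Slc38a8, whose intervals are wide.

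At a fold of 8, the counts were 8 between iCD8a and ILC1 (2 higher in iCD8a), 24 between iCD8a and CD11b+ (2 and 22) and 22 between ILC1 and CD11b+ (2 and 20). Against both others they were 1 higher and 2 lower in iCD8a, 1 higher and 0 lower in ILC1, and 17 higher and 0 lower in CD11b+. At a fold of 2 with a near bound of 1.5, the counts were 38 (17 and 21), 79 (21 and 58) and 83 (27 and 56), and against both others 6 and 9 in iCD8a, 8 and 9 in ILC1, and 43 and 13 in CD11b+. With no CPM minimum and all Slc genes with a count, they were 26 (9 and 17), 80 (68 higher in CD11b+) and 74 (8 and 66), and against both others 6 and 9 in iCD8a, 5 higher in ILC1 and 52 higher in CD11b+. A minimum of 10 CPM left 3 higher in iCD8a than in ILC1 and 1 lower in ILC1 than in both others. Unscaled CPM and upper-quartile factors each gave 8 carriers higher in ILC1 than in CD11b+, upper-quartile factors gave 5 higher in ILC1 than in both others, and unscaled CPM gave 2 lower in iCD8a than in both others. Without the enterocyte transporters, 3 were higher in ILC1 than in CD11b+, 1 was lower in ILC1 and 0 lower in CD11b+ than in both others. With unscaled CPM the median log2 ratios were 0.25, 0.0438 and -0.25. Changes at other folds, minimums and members follow from how many genes can pass, and the cause of the others was not tested.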

Other observations

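Among the 178 Slc genes below the minimum, several that mark absorptive enterocytes had their highest level in CD11b+. Slc15a1, the peptide carrier of the brush border, stood at 1.27 (iCD8a), 1.64 (ILC1) and 4.11 CPM (CD11b+). Slc9a3, the apical sodium-proton exchanger, stood at 0.381, 0.454 and 3.47 CPM, and Slc5a12, a lactate carrier, at 0, 0.0909 and 1.17 CPM. These genes were singled out after their values were seen.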
